A study of Rattus norvegicus with 30 samples.

Results

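The Cyp3a family of rat liver cytochrome P450 enzymes was followed on 30 one-colour arrays. Its members here were all array probes whose transcript carries the symbol Cyp3a23-3a1, Cyp3a2, Cyp3a18, Cyp3a9 or Cyp3a62. Each of the 5 genes had 1 probe, so the family made up 5 of the 26912 genes or unnamed transcripts on the array, and all 5 were well above background on all 30 arrays. Livers came from male animals of 3 models. Crl:CD(SD) rats, called SD rats here, and rats with a knockout of CAR, called CAR KO rats, gave 4 livers per diet. Chimeric mice, whose livers were repopulated with rat hepatocytes, gave 7 livers per diet. Each model was fed either a control diet (0 ppm) or a diet with 1000 ppm PB, for 7 days. PB is phenobarbital and CAR the constitutive androstane receptor, encoded by Nr1i3.

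Several limits come with these groups. A chimeric liver keeps the blood vessels, macrophages and bile ducts of its mouse host, and how much of the liver was rat was not given in the sources used here. The strain behind the CAR KO rats and the position of their deletion were not given either. The Nr1i3 probe read between 0.76 and 1.88 on the log2 scale of the levels in SD controls and between 0.69 and 1.35 in CAR KO controls, so it did not separate the genotypes; whether it lies in the deleted part was not given, and it checks no label. Ages were not given.

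CYP3A enzymes sit in the membrane of the endoplasmic reticulum, take electrons from cytochrome P450 reductase (Por) and hydroxylate steroids and a wide range of drugs. Their genes are switched on by the pregnane X receptor PXR (Nr1i2), which binds paired copies of a short core motif as a partner of RXR, and CAR can use many of the same elements. PB acts in liver largely through CAR. In the adult rat the family is also sex-dependent, under the pattern of growth hormone release: Cyp3a2 and Cyp3a18 are predominantly male forms, and Cyp3a9 and Cyp3a62 are more strongly expressed in females.

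The 5 genes lie on chromosome 12 of the rat. By gene order in RefSeq (GRCr8), Cyp3a23-3a1 and Cyp3a2 are direct neighbours with 0 other protein-coding genes between them, and Cyp3a62 and Cyp3a9 form another pair with 3 between. The pairs are separated by 110 protein-coding genes. Cyp3a18 lies on the far side of Cyp3a2, with 4 entries between, among them the paralogs Cyp3a73 and Cyp3a2l1, which had no matched probe. Probe sequences were not analysed here, so reads of 1 probe for a near-identical paralog, or for mouse transcripts in the chimeric livers, were not examined.

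Promoters were found in RefSeq for all 5 genes, and they are shown because the 2 direct neighbours hold an arrangement of core motifs that the other 3 lack. Each sequence runs from base -250 to base -51 before the start of its promoter entry, 5′ to 3′ on the gene's own strand. For Cyp3a2 that start lies inside the RefSeq gene, whose upstream end is at base 14343886. Positions given for Cyp3a2 are therefore not counted from that end. For the other genes the start is that of the RefSeq gene. Capitals mark the nuclear receptor core motifs AGTTCA and AGGTCA, or their reverse complements TGAACT and TGACCT. Cyp3a23-3a1 lies at chr12:14398854-14399053 on the minus strand, Cyp3a2 at chr12:14343908-14344107 on the minus strand, Cyp3a18 at chr12:13994062-13994261 on the plus strand, Cyp3a9 at chr12:21960211-21960410 on the minus strand and Cyp3a62 at chr12:21511513-21511712 on the plus strand (GRCr8).
Cyp3a23-3a1: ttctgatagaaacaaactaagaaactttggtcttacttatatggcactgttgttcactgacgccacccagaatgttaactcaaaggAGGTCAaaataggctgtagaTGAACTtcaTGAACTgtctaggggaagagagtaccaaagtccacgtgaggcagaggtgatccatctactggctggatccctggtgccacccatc
Cyp3a2: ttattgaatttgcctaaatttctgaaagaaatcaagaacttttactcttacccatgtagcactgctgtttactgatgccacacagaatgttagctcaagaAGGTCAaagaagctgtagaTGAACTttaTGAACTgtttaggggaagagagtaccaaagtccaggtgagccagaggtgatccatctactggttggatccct
Cyp3a18: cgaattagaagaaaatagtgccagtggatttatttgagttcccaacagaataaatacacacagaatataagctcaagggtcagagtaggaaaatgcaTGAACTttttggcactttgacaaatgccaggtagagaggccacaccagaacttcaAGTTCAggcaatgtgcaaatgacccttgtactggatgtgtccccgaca
Cyp3a9: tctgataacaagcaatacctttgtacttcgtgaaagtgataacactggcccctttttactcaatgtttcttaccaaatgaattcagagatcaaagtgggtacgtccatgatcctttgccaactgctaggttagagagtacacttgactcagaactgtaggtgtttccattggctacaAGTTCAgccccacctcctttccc
Cyp3a62: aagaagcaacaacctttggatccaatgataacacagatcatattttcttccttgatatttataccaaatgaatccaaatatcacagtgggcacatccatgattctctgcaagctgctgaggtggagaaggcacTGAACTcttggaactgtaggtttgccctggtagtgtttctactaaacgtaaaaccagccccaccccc

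In Cyp3a23-3a1 and in Cyp3a2, core motifs on the strand opposite to the gene's own stand as a direct repeat with 3 bases between (DR3, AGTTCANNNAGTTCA). It spans bases -144 to -130 in Cyp3a23-3a1, where it reads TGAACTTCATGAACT on the gene's strand. It spans -131 to -117 in Cyp3a2, where it reads TGAACTTTATGAACT. This repeat is the known PXR-binding element of the rat CYP3A promoters. Both strands were searched for the core motifs, for direct repeats of either core motif with 3 or 4 bases between (DR3 and DR4) and for everted repeats with 6 between (ER6), and a repeat contains its own core motifs. The search covered the 250 bases before the start of each promoter entry, of which the sequences above print the first 200. A DR3 was found in 13 of 33469 such promoter windows, or 0.0388%, belonging to 10 symbols. Of these symbols 2 were tested in SD rats, both of them Cyp3a genes. DR4 was present in 0.0149% and ER6 in 0.00299% of windows, and neither was found with exact letters in a Cyp3a promoter. Repeats with a changed base in a core motif were not searched for, so such elements may be present. Single core motifs were common: AGTTCA was present in 12.2% of windows and in all 5 Cyp3a promoters, and AGGTCA in 14.1%, among them Cyp3a23-3a1 (bases -164 to -159) and Cyp3a2 (-150 to -145). By pairwise alignment of the printed 200 bases, Cyp3a23-3a1 and Cyp3a2 were 74.4% identical, Cyp3a9 and Cyp3a62 62.7%, and the other pairs 44.9% to 56.9%. A match describes letters in the window and is not evidence of a bound factor.

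Levels below are log2 of an array's processed signal minus the 75th percentile of that array, so 0 is the signal at that percentile and negative values lie under it. Each probe has its own brightness, so levels are compared between groups for 1 gene and never between genes. Differences are log2 differences with their standard error (SE) from limma, and adjusted p values come from limma, adjusted by Benjamini and Hochberg's method across the genes tested in that comparison; a gene was called at an adjusted p under 0.05. These are whole livers, in which fewer cells of a type and less RNA per cell cannot be told apart. In 2 CAR KO arrays the family was low as a whole: replicate 3 on control diet and replicate 1 on PB each had the lowest level of its group for 5 of 5 Cyp3a genes, although none of these low values passed Dixon's outlier test. Their signals at the 75th percentile (510 and 514) lay within the range of the other CAR KO arrays, and so did their summed levels of 10 hepatocyte markers (2910 and 2840). Values that leaving out either array moved by over 1.5 times, or whose call it changed, are given with and without it.

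**Figure D1:**
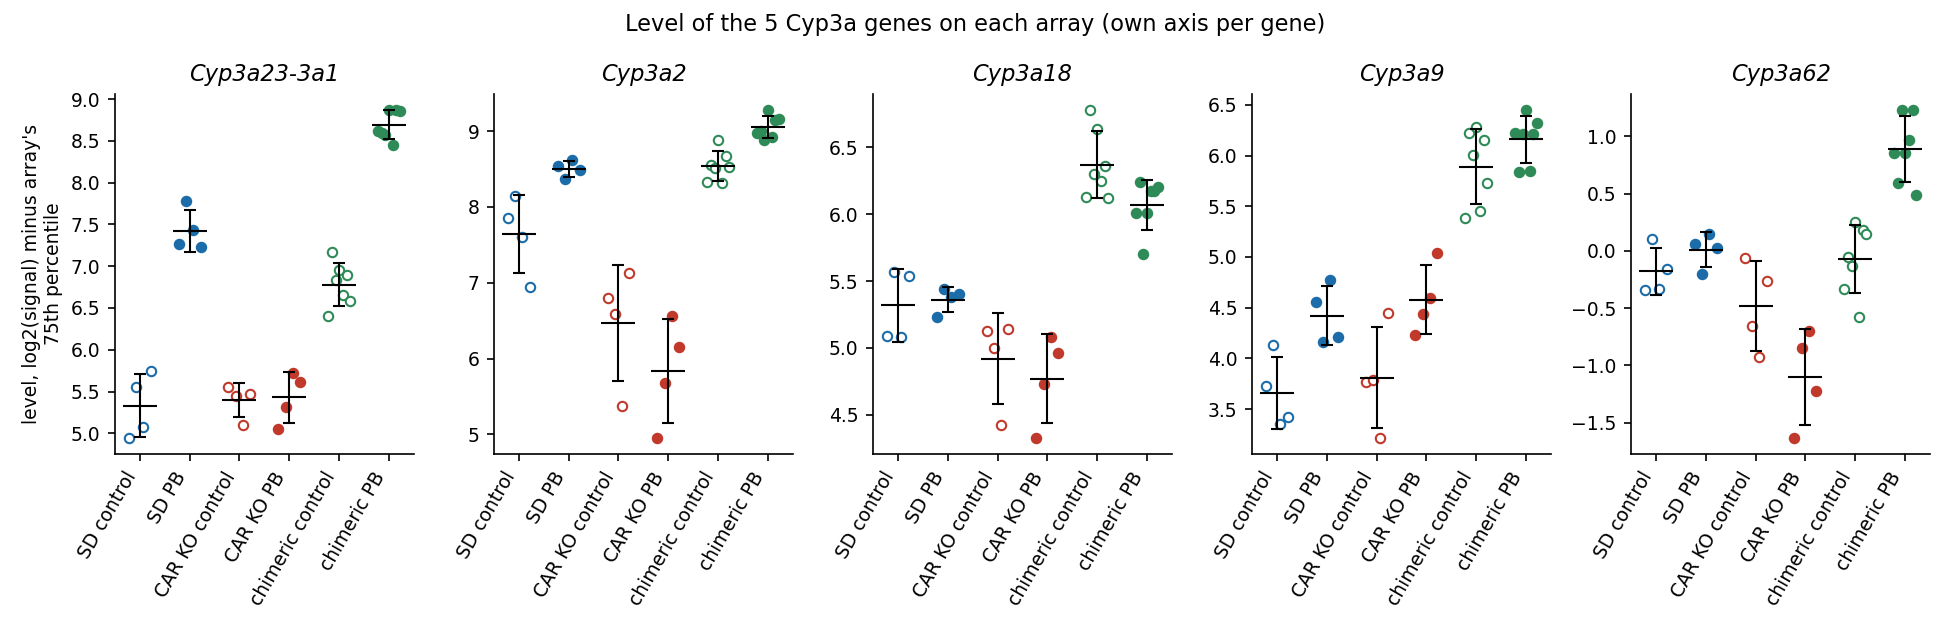
Level of each Cyp3a gene on every array (log2 signal minus the array's 75th percentile, own axis per gene) in SD rats, CAR KO rats and chimeric mice; open circles are control diet, filled circles PB, and bars the mean ± SD (n = 4, 4 and 7 per diet). Cyp3a23-3a1 stood higher on PB in SD rats and chimeric mice without overlap, while its CAR KO groups overlapped.

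Cyp3a23-3a1, formerly Cyp3a1 and the classic inducible CYP3A of rat liver, had the largest PB response of the 5 genes in SD rats and in chimeric mice. The 4 SD controls read 4.95, 5.55, 5.07 and 5.74, and the 4 SD rats on PB read 7.27, 7.78, 7.43 and 7.23. Every PB liver lay above every control. The difference was 2.10 ± 0.193 (SE; 4.28-fold; adjusted p = 2.57e-05 by limma), which ranked 47 by size among the 17009 genes tested. In that comparison 4.3% of all genes were called (2.5% higher and 1.8% lower), and 1 of the 5 Cyp3a genes was.

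In CAR KO rats Cyp3a23-3a1 was not called. The controls read 5.56, 5.45, 5.10 and 5.47 and the PB livers 5.05, 5.31, 5.72 and 5.61, so the groups overlapped. The difference was 0.03 ± 0.193 with a 95% interval of -0.39 to 0.44; it was -0.07 without control replicate 3 and 0.15 without PB replicate 1. Across all genes 0.205% were called in CAR KO rats (0.0513% higher and 0.154% lower). By limma 0 of 5 Cyp3a genes were called, although Cyp3a9 and Cyp3a62 would pass at 0.05 without adjustment. The response of Cyp3a23-3a1 in CAR KO rats was lower than that in SD rats by -2.07 ± 0.274 (adjusted p = 0.00329), where 0.533% of genes were called in all and 1 of 5 Cyp3a genes. For this difference of responses Cyp3a2 and Cyp3a62 would pass at 0.05 without adjustment.

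In chimeric livers Cyp3a23-3a1 was higher on both diets and also rose on PB. The 7 controls ranged from 6.40 to 7.17 with a median of 6.84, and the 7 PB livers from 8.45 to 8.87 with a median of 8.62, without overlap. The response was 1.91 ± 0.126 (3.75-fold, adjusted p = 1.13e-07). It differed from the SD response by -0.19 ± 0.227, with a 95% interval of -0.66 to 0.28, so a smaller or larger response by up to those amounts is within the error. By group means the order from high to low was chimeric PB (8.69 ± 0.173, SD, n = 7), SD PB (7.42 ± 0.249, n = 4), chimeric control (6.78 ± 0.256, n = 7), CAR KO PB (5.43 ± 0.305, n = 4), CAR KO control (5.40 ± 0.205, n = 4) and SD control (5.33 ± 0.374, n = 4). The last 3 overlapped, and the others were separate from their neighbours.

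Cyp3a2, the main male-predominant steroid 6-beta-hydroxylase of rat liver, had its largest differences between SD and CAR KO rats on PB. The SD controls read 7.85, 8.14, 7.61 and 6.94 and the SD rats on PB 8.54, 8.37, 8.62 and 8.49. All 4 PB livers lay above the controls, but the controls spread widely (SD 0.512) and the difference of 0.87 ± 0.377 did not pass the test (adjusted p = 0.215). The CAR KO controls read 6.80, 6.59, 5.37 and 7.13, and the CAR KO rats on PB 4.96, 5.68, 6.56 and 6.16. These groups overlapped, with a difference of -0.63 ± 0.378 (adjusted p = 0.434). That difference was -1.0 without CAR KO control replicate 3 and -0.34 without CAR KO PB replicate 1 (adjusted p = 0.198 and 0.688). Neither rat response passed, nor did the difference between them, -1.50 ± 0.535 (adjusted p = 0.256).

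On the PB diet all 4 CAR KO livers had less Cyp3a2 signal than any SD liver. The difference was -2.67 ± 0.376 (6.34-fold lower, adjusted p = 8.01e-05), the largest in size of the 5 genes on that diet, and without CAR KO PB replicate 1 it was -2.37 (adjusted p = 0.000258). On the control diet the difference was -1.16 ± 0.378 (adjusted p = 0.0284), with 3 of 4 CAR KO livers below every SD liver. That control-diet call was lost without CAR KO control replicate 3 (-0.80, adjusted p = 0.0813) and without SD control replicate 1, 2 or 3 (-1.09, -1.0 and -1.17, adjusted p = 0.0648, 0.079 and 0.052). It was also lost in a fit of only these groups (adjusted p = 0.0538) and with the replicate number as a block (adjusted p = 0.0558).

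In chimeric livers Cyp3a2 ranged from 8.32 to 8.88 (median 8.53) on control diet and from 8.88 to 9.28 (median 9.0) on PB. The highest control and the lowest PB liver met, and the response was small, 0.51 ± 0.109 (1.42-fold, adjusted p = 0.00162). It differed from the SD response by -0.36 ± 0.363 (adjusted p = 0.537 by limma). The order of its group means was chimeric PB (9.05 ± 0.146), chimeric control (8.54 ± 0.195), SD PB (8.50 ± 0.106), SD control (7.64 ± 0.512), CAR KO control (6.47 ± 0.766) and CAR KO PB (5.84 ± 0.684). Of these neighbours, SD PB and SD control did not overlap and the other 4 pairs did.

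Cyp3a18, the second male-predominant form, was not called for PB in any model. The SD controls read 5.09, 5.57, 5.08 and 5.54 and the PB livers 5.23, 5.44, 5.38 and 5.40, a difference of 0.04 ± 0.185 with a 95% interval of -0.35 to 0.44. The CAR KO controls read 5.13, 5.0, 4.42 and 5.14 and the PB livers 4.33, 4.73, 5.08 and 4.96, a difference of -0.15 ± 0.186 with an interval of -0.54 to 0.25. It was -0.31 without CAR KO control replicate 3 and 0 without CAR KO PB replicate 1. Within both rat models the diets overlapped. The CAR KO response differed from the SD response by -0.19 ± 0.263 (adjusted p = 0.821 by limma). That was -0.36 without CAR KO control replicate 3 and -0.04 without CAR KO PB replicate 1.

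Between the rat models Cyp3a18 was lower in CAR KO rats on PB, where no CAR KO liver reached the lowest SD liver, by -0.59 ± 0.185 (adjusted p = 0.0194). Without CAR KO PB replicate 1 that difference was -0.44 and was not called (adjusted p = 0.0629), and it was not called after quantile normalization (adjusted p = 0.0675). On control diet the difference was -0.40 ± 0.186 (adjusted p = 0.112), and -0.23 without CAR KO control replicate 3. In chimeric livers Cyp3a18 ranged from 6.12 to 6.78 (median 6.30) on control diet and from 5.70 to 6.24 (median 6.17) on PB. The difference of -0.30 ± 0.127 did not pass (adjusted p = 0.0726), although it did after quantile normalization (adjusted p = 0.018) and after normexp background correction (adjusted p = 0.0238). The chimeric response differed from the SD response by -0.34 ± 0.223 (adjusted p = 0.315 by limma). The order of means was chimeric control (6.37 ± 0.252), chimeric PB (6.07 ± 0.188), SD PB (5.36 ± 0.0941), SD control (5.32 ± 0.273), CAR KO control (4.92 ± 0.342) and CAR KO PB (4.77 ± 0.331), and chimeric PB and SD PB were the neighbours that did not overlap.

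Cyp3a9, a female-predominant form with broad steroid substrates, read higher on PB by nearly the same amount in SD and CAR KO rats, below the threshold in each. The SD controls read 3.73, 4.13, 3.35 and 3.42 and the SD rats on PB 4.56, 4.16, 4.77 and 4.21, with no overlap. The difference was 0.77 ± 0.25 (adjusted p = 0.101). The CAR KO controls read 3.77, 3.79, 3.22 and 4.45 and the PB livers 4.23, 4.44, 4.60 and 5.04. Here the highest control lay among the PB livers, and the difference was 0.77 ± 0.251 (adjusted p = 0.165). The 2 responses differed by 0 ± 0.355 with a 95% interval of -0.76 to 0.76, which is as wide as the responses themselves. That difference was -0.19 without CAR KO control replicate 3 and 0.11 without CAR KO PB replicate 1. The mean of both rat responses, a contrast added after seeing the data, was 0.77 ± 0.178 (adjusted p = 0.0264), in a comparison that called 4.76% of all genes. The same contrast called Cyp3a23-3a1 (1.06 ± 0.137, adjusted p = 0.000942), whose CAR KO difference was 0.03, so passing it does not show a response in each model.

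The chimeric livers had the highest Cyp3a9 signal on either diet. Controls ranged from 5.38 to 6.28 (median 6.01) and PB livers from 5.84 to 6.45 (median 6.21), overlapping, with a difference of 0.27 ± 0.163 (adjusted p = 0.199). It differed from the SD response by -0.50 ± 0.299 (adjusted p = 0.263). The order of means was chimeric PB (6.16 ± 0.231), chimeric control (5.89 ± 0.37), CAR KO PB (4.58 ± 0.342), SD PB (4.42 ± 0.289), CAR KO control (3.81 ± 0.501) and SD control (3.66 ± 0.354), and only chimeric control and CAR KO PB were neighbours without overlap.

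Cyp3a62, the other female-predominant form, was near the 75th percentile of the arrays in SD rats, lower in CAR KO rats on PB and higher in chimeric livers on PB. The SD controls read -0.34, 0.10, -0.33 and -0.16 and the SD rats on PB 0.06, -0.20, 0.15 and 0.02, overlapping, with a difference of 0.19 ± 0.207 (adjusted p = 0.656). The CAR KO controls read -0.06, -0.66, -0.93 and -0.26 and the PB livers -1.63, -0.85, -0.70 and -1.22. The values differed by -0.62 ± 0.208, not past the threshold (adjusted p = 0.175), nor did its difference from the SD response, -0.81 ± 0.294 (adjusted p = 0.265). On PB the 4 CAR KO livers all lay below the SD livers, by -1.10 ± 0.207 (2.15-fold lower, adjusted p = 0.000756). On control diet the groups overlapped, with a difference of -0.30 ± 0.208 (adjusted p = 0.288), which was -0.15 without CAR KO control replicate 3.

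In chimeric livers Cyp3a62 rose. Controls ranged from -0.58 to 0.25 (median -0.05) and PB livers from 0.49 to 1.23 (median 0.85), without overlap, and the response was 0.96 ± 0.156 (1.95-fold, adjusted p = 0.000222). It exceeded the SD response by 0.77 ± 0.264 (adjusted p = 0.04), where 18.9% of all genes were called (6.29% higher and 12.6% lower) and 1 of 5 Cyp3a genes. The margin is narrow: the call was lost by leaving out any 1 of 11 arrays (chimeric control replicate 1, 3 or 5, chimeric PB replicate 3, 5 or 6, SD control replicate 2 or 4, and SD PB replicate 1, 2 or 4), with values of 0.68 to 0.84 and adjusted p of 0.0268 to 0.092 over all arrays left out in turn. The order of means was chimeric PB (0.89 ± 0.287), SD PB (0.01 ± 0.15), chimeric control (-0.07 ± 0.299), SD control (-0.18 ± 0.204), CAR KO control (-0.48 ± 0.392) and CAR KO PB (-1.10 ± 0.418), and chimeric PB alone did not overlap with its neighbour.

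**Figure D2:**
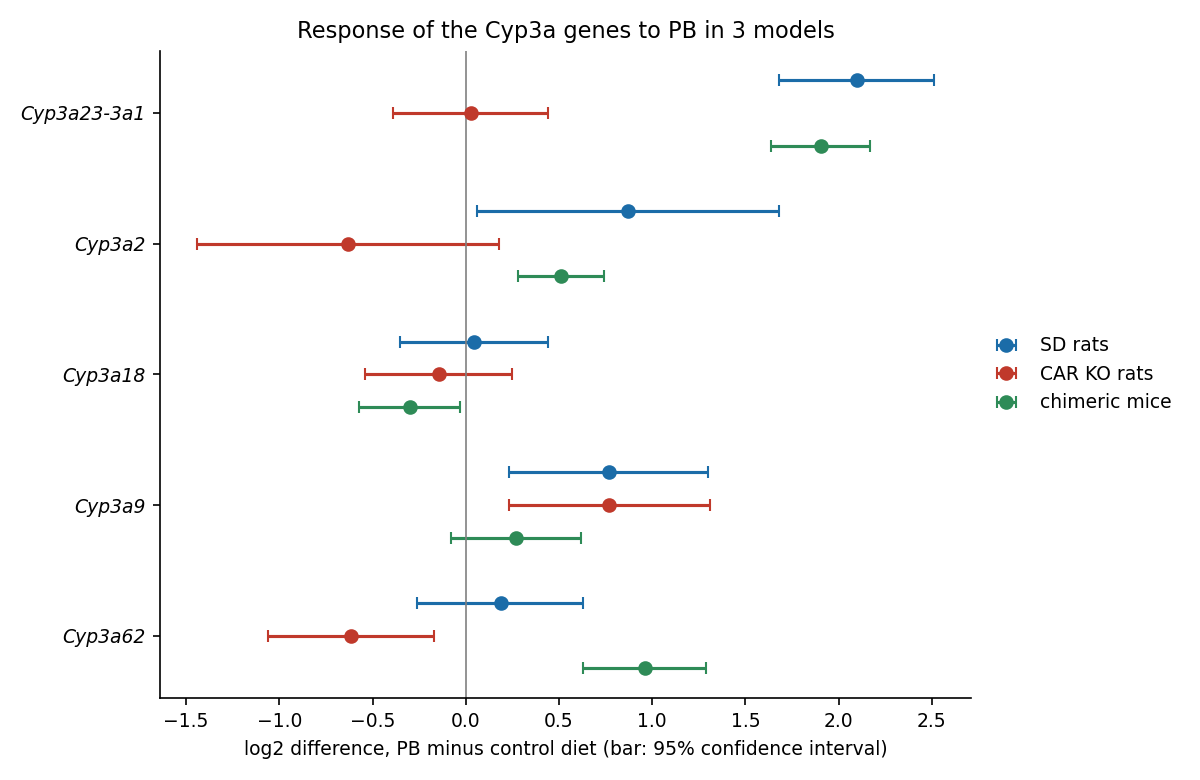
Log2 difference between PB and control diet for each Cyp3a gene in SD rats, CAR KO rats and chimeric mice, with 95% confidence intervals from limma. The Cyp3a23-3a1 points are 2.10, 0.03 and 1.91, and the Cyp3a9 points of both rat models are 0.77.

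The PB response was called for 1 of 5 Cyp3a genes in SD rats (background 4.3%) and for 0 of 5 in CAR KO rats (0.205%). In chimeric mice it was called for 3 of 5, Cyp3a23-3a1, Cyp3a2 and Cyp3a62, against 42.7% of all genes, and all 3 were higher on PB, where 19.3% of all genes were called higher and 23.4% lower. The median difference of the 5 genes was 0.77 in SD rats, -0.15 in CAR KO rats and 0.51 in chimeric mice, and that of all genes was -0.02, -0.02 and 0.06. The comparisons of CAR KO rats and of chimeric mice with SD rats share the SD animals, so they are given side by side and are not independent.

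The chimeric arrays were not spread evenly over slides. All 7 controls and PB replicate 1 were on slide 1 and PB replicates 2 to 7 on slide 2. Within slide 1, PB replicate 1 was above the controls' mean by 1.84 ± 0.278 for Cyp3a23-3a1 (adjusted p = 0.0151), by 0.43 ± 0.236 for Cyp3a2 (adjusted p = 0.565) and by 0.93 ± 0.309 for Cyp3a62 (adjusted p = 0.258). The sizes changed little and the errors grew, with 1 PB liver in place of 7 and the lone liver assumed to vary like the controls. Slide 2 held no control, so a fit of the 14 arrays with the slide as a block rests on the same single PB liver and is no second check. Its values were 1.84 (adjusted p = 0.00199), 0.43 (0.522) and 0.93 (0.265), so that 1 of 5 Cyp3a genes was called, and the difference of Cyp3a62 from the SD response was 0.74 (adjusted p = 0.656). The controls and PB livers of each rat model were in separate rows of 1 slide, and for rats row and diet cannot be told apart.

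**Figure D3:**
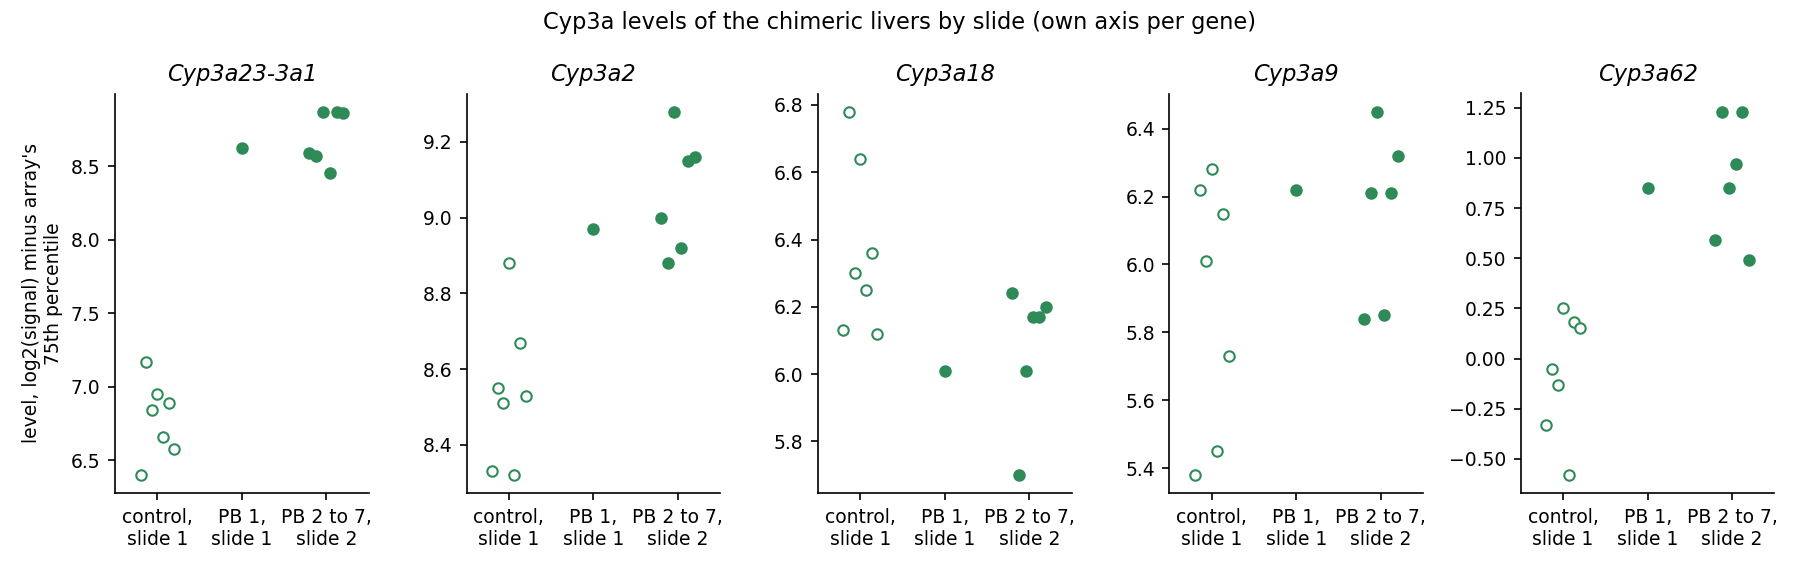
Levels of the Cyp3a genes in chimeric livers (log2 signal minus the array's 75th percentile, own axis per gene), split into 7 controls on slide 1, PB replicate 1 on slide 1 and PB replicates 2 to 7 on slide 2. For Cyp3a23-3a1 and Cyp3a62 the PB liver on slide 1 lies above all 7 controls and among the PB livers of slide 2.

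Levels were also compared between the models on the same diet. On control diet 1 of 5 Cyp3a genes was called between CAR KO and SD rats (Cyp3a2, lower), against 34.1% of all genes called and 19.7% called lower. On PB 4 of 5 were lower in CAR KO rats, Cyp3a2, Cyp3a23-3a1, Cyp3a62 and Cyp3a18, against 42.1% of all genes called and 25.1% called lower. Without CAR KO PB replicate 1 the count was 3. The difference of Cyp3a23-3a1 was 0.07 ± 0.193 on control diet and -2.0 ± 0.193 on PB (adjusted p = 2.3e-06), while Cyp3a9 differed by 0.15 on both diets (intervals -0.38 to 0.69). Without CAR KO control replicate 3 the control-diet differences were 0.17 for Cyp3a23-3a1 and 0.35 for Cyp3a9, and without CAR KO PB replicate 1 that of Cyp3a9 on PB was 0.27. Each rat model was on a slide of its own, so model and slide cannot be told apart in these level comparisons.

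Against SD rats on control diet, 4 of 5 Cyp3a genes were higher in chimeric livers, against 74.6% of all genes called, 38.7% higher and 35.9% lower. Cyp3a9 differed by 2.23 ± 0.211 (4.7-fold, adjusted p = 5.84e-10), Cyp3a23-3a1 by 1.46 ± 0.161 (2.74-fold, adjusted p = 9.6e-09), Cyp3a18 by 1.05 ± 0.158 and Cyp3a2 by 0.91 ± 0.257 (adjusted p = 0.00263). Cyp3a62 differed by 0.11 ± 0.187 and overlapped. On PB 4 of 5 were again called, against 72.7% of all genes, 38.8% higher and 33.9% lower: Cyp3a9 by 1.73 ± 0.211, Cyp3a23-3a1 by 1.26 ± 0.16, Cyp3a62 by 0.88 ± 0.186 and Cyp3a18 by 0.71 ± 0.157. Cyp3a2, at 0.55 ± 0.256, missed the threshold (adjusted p = 0.0575). It was called, at the same size, without SD control replicate 4, CAR KO control replicate 3 or 4, or CAR KO PB replicate 1 or 3, which enter this fit only through the shared spread (adjusted p = 0.0222 to 0.122 over all arrays left out in turn).

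These level differences depend on how arrays of different livers are scaled. Quantile normalization reduced the control-diet values to 1.63 for Cyp3a9, 0.76 for Cyp3a23-3a1, 0.35 for Cyp3a18 and 0.42 for Cyp3a2, the last no longer called (adjusted p = 0.138). It left Cyp3a18 at 0.03 on PB (adjusted p = 0.855). Centring each array on its median instead moved the median of all genes from 0.04 to 0.44 on control diet and from 0.01 to 0.69 on PB, and raised the Cyp3a values with it. Chimeric and SD livers were on different slides, so model and slide cannot be told apart here.

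**Figure D4:**
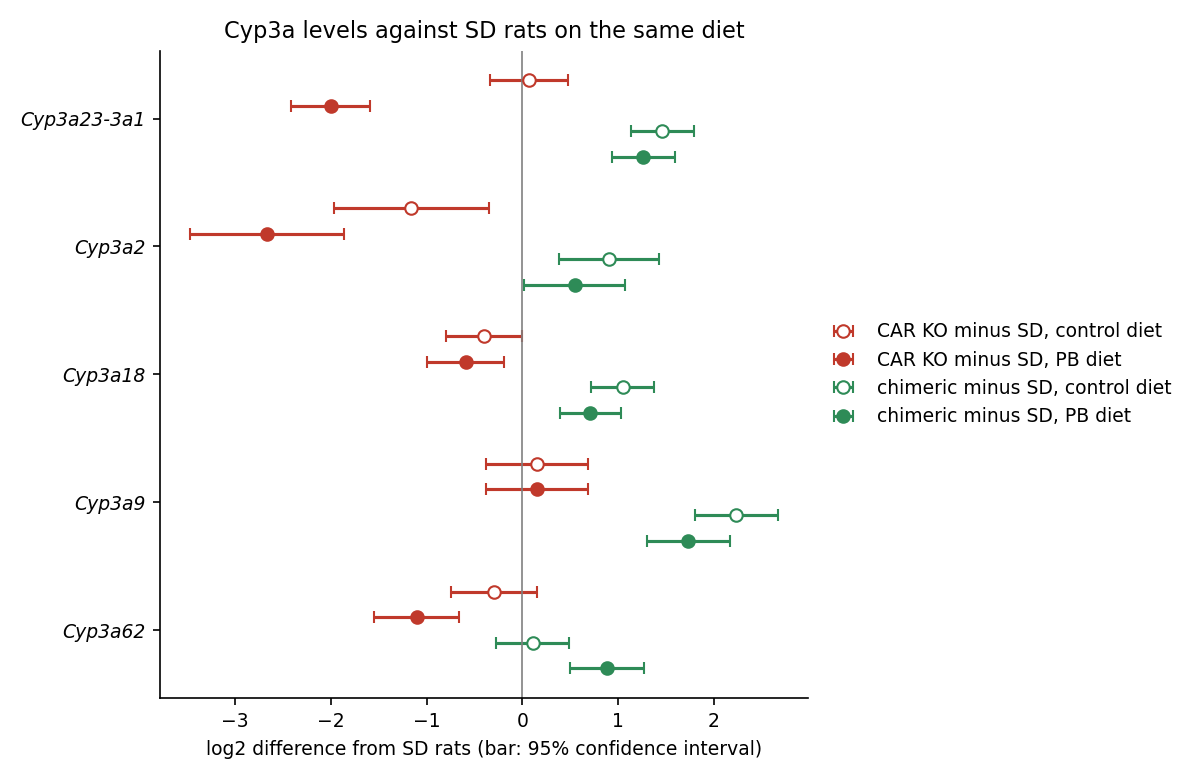
Log2 difference of each Cyp3a gene from SD rats on the same diet, for CAR KO rats and chimeric mice, with 95% confidence intervals from limma; open circles are control diet and filled circles PB. Cyp3a2 in CAR KO rats on PB is lowest at -2.67 and Cyp3a9 in chimeric livers on control diet highest at 2.23.

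Markers of other liver cells moved with the chimeric comparisons with SD rats. Blood vessels, macrophages and bile ducts of a chimeric liver are those of the mouse host. How these rat probes read mouse transcripts was not examined, so a low signal in chimeric livers does not measure the number of cells. On control diet 7 of 8 macrophage markers were lower than in SD rats and on PB 8 of 8; their summed linear level was 40.7 to 55.1 in chimeric controls, 25.2 to 45.6 in chimeric PB livers, 88.9 to 103 in SD controls and 88.5 to 105 in SD PB livers, and Marco was not well above background in any chimeric liver. Endothelial markers were lower for 4 of 5 on each diet, with Tek not well above background in any chimeric liver. Summed hepatocyte markers were 3050 to 3350 and 2460 to 3320 in chimeric livers on control diet and PB, 3330 to 3500 and 3100 to 3240 in SD rats, and 2870 to 3040 and 2650 to 3070 in CAR KO rats. Hepatocyte markers were called lower than in SD rats for 5 of 10 in chimeric livers on either diet and higher for 1. Over all genes 35.9% were lower and 38.7% higher on control diet, and 33.9% lower and 38.8% higher on PB. On control diet the chimeric livers also had 3 stellate cell markers higher and 3 lower of 6, and 2 cholangiocyte markers higher and 2 lower of 4. Of the blood cell markers, 3 of 4 T, NK and B cell, 2 of 2 neutrophil and 1 of 3 erythroid markers were lower. That erythroid marker was Hbb, at 7.12 in SD controls and well above background in 0 of 7 chimeric controls. The cholangiocyte marker Krt19 was also well above background in 0 of 7. CAR KO livers had 5 of 10 hepatocyte markers lower than SD livers on control diet and 1 on PB, and 2 and 3 of 8 macrophage markers lower (summed level 63.7 to 93.3 and 50 to 81.3). On each diet 2 of 6 stellate cell, 1 of 4 cholangiocyte and 1 of 4 T, NK and B cell markers were lower. Higher were 1 of 4 T, NK and B cell markers on control diet and 2 of 3 erythroid markers on PB. Over all genes 19.7% were lower and 14.4% higher in CAR KO rats on control diet, and 25.1% and 16.9% on PB. Against those shares, counts such as 2 of 8 or 1 of 10 do not stand out. The 5 of 10 hepatocyte markers lower in CAR KO rats on control diet are above the 19.7% of all genes. The median difference of these hepatocyte markers was -0.25, against -0.08 for all genes. Some markers also moved with the PB response of the chimeric mice, where 23.4% of all genes were called lower and 19.3% higher. Lower on PB were 4 of 6 macrophage markers tested and 2 of 2 T, NK and B cell markers. Nearer the share of all genes, 1 of 3 endothelial markers and 2 of 10 hepatocyte markers were lower. Of 5 stellate cell markers 2 were higher and 2 lower, and 1 of 3 cholangiocyte markers was higher. The part of these cells in the Cyp3a differences was not tested.

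Of the receptors of the pathway, PXR was called in 1 rat model. PXR (Nr1i2) fell in SD rats on PB by 0.39 on the log2 scale (SE 0.096, adjusted p = 0.0355) and was at -0.29 ± 0.0963 in CAR KO rats (adjusted p = 0.171) and 0.20 ± 0.191 in chimeric mice (adjusted p = 0.408). The CAR gene Nr1i3 was at -0.63 ± 0.303, -0.50 ± 0.303 and -0.14 ± 0.184 in these 3 models and did not pass in any. Of 14 regulators tested, including RXR subunits, HNF4A and C/EBP factors, 0 were called higher in SD rats by limma and 1 lower. At an unadjusted p under 0.05 these counts were 0 and 3. Over all genes 2.5% were called higher in SD rats and 1.8% lower. In CAR KO rats 0 of 14 were called by limma, and 1 higher and 1 lower would pass unadjusted. In chimeric mice 1 of 12 was higher, Hnf4a (0.45 ± 0.173), and 1 lower, the glucocorticoid receptor Nr3c1 (-1.12 ± 0.179). Over all genes 19.3% were called higher there and 23.4% lower. After median centring 5 of 12 regulators were higher.

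The electron donors of CYP3A and the supply of heme were called in SD rats and chimeric mice. Por, the reductase, read 1.51, 1.28, 1.53 and 1.77 in SD controls and 2.59, 3.22, 3.61 and 2.95 on PB, a difference of 1.57 ± 0.175 (adjusted p = 0.000159). In CAR KO rats it was at -0.18 ± 0.176 (adjusted p = 0.652), and the difference from SD rats, -1.75 ± 0.249, passed (adjusted p = 0.00461). In chimeric mice Por rose by 2.97 ± 0.456 (adjusted p = 0.000152). Of 7 such genes, 4 rose in SD rats, against 2.5% of all genes called higher. There Alas1, the first enzyme of heme synthesis, rose by 1.41 ± 0.197, cytochrome b5 (Cyb5a) by 0.73 ± 0.101 and Pgrmc1 by 0.33 ± 0.0808. In CAR KO rats 0 of 7 were called by limma (0.205% of all genes were), and 2 would pass unadjusted, both higher. In chimeric mice 7 of 7 rose, against 19.3% of all genes called higher. Alas1 was at 1.82 ± 0.19, Hmox1, the heme-degrading oxygenase, at 1.48 ± 0.309 and Cyb5a at 0.98 ± 0.106.

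Other known targets of CAR or PXR, such as the Cyp2b genes, drug transporters and conjugating enzymes, gave the widest responses. In SD rats 14 of 21 rose and 1, the sulfotransferase Sult2a1, fell by 1.30 on the log2 scale. Over all genes 2.5% were called higher there and 1.8% lower. Cyp2b2 rose by 4.03 ± 0.138 and Aldh1a1 by 4.37 ± 0.451, the export pump Abcc3 was at least 24.8-fold higher (not well above background in any SD control), and Cyp2b21 was at 8.24 ± 0.532, a size that rests in part on control signals below background (1 of 4 controls was above it). In CAR KO rats 0 of 19 were called by limma (0.205% of all genes were), and 5 higher and 1 lower would pass unadjusted. The response was lower than in SD rats for 9 of 21, against 0.427% of all genes, with Cyp2b2 at -4.12 ± 0.196 and Aldh1a1 at -3.70 ± 0.641. In chimeric mice 17 of 21 rose and 1 fell, against 19.3% and 23.4% of all genes. Cyp2b2 rose by 5.81 ± 0.264, Cyp2b21 by at least 81.3-fold, Abcc3 by 3.46 ± 0.366 (5 of 7 controls above background) and the carboxylesterase Ces2c by 3.31 ± 0.271. The median of this list was 1.29 in SD rats, 0.29 in CAR KO rats and 1.59 in chimeric mice.

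The sex-dependent liver genes were read beside Cyp3a2 and Cyp3a18, which belong to the male-predominant kind. On PB 7 of 8 other male-predominant genes were lower in CAR KO than in SD rats, against 25.1% of all genes. Cyp2c11, the main male P450 of rat liver, differed by -1.60 ± 0.214 (adjusted p = 4.88e-05), Cyp2c13 by -1.02 ± 0.224, Hsd11b1 by -0.85 ± 0.12 and Hao2 by -0.69 ± 0.233. The count was 4 after quantile normalization, 4 without CAR KO PB replicate 1, 4 without CAR KO PB replicate 2 and 4 to 7 with each array left out in turn; 0 were higher in any of these. Of 7 female-predominant genes 5 were higher in CAR KO rats on PB and 1, Cyp2a1, lower, against 16.9% and 25.1% of all genes. The female P450 Cyp2c12 differed by 3.97 ± 0.53 (15.6-fold, adjusted p = 4.61e-05), the 5-alpha-reductase Srd5a1 by 1.77 ± 0.325 and Sult2a1 by 2.30 ± 0.259. Prlr and A1bg differed by 4.89 ± 0.825 and 6.12 ± 0.916, sizes that rest in part on SD signals below background (2 and 1 of 4 SD PB arrays were above it). Sult2a1, Cyp2a1 and Cyp2c7 are also in the list of CAR or PXR targets. The female-predominant forms within the Cyp3a family did not share that direction: Cyp3a9 differed by 0.15 ± 0.25 on PB and Cyp3a62 was lower.

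On control diet, where 14.4% of all genes were called higher and 19.7% lower, the same lists gave fewer calls: 1 of 8 male-predominant genes was lower in CAR KO rats (Obp3), and 4 of 7 female-predominant genes were higher and 1 lower, with Cyp2c12 at 1.46 ± 0.528 (adjusted p = 0.0457). With each array left out in turn, 0 to 2 male-predominant genes were lower. The female-predominant genes called higher numbered 1 without SD control replicate 2, 1 without CAR KO control replicate 3, 2 without SD control replicate 4, 2 without CAR KO control replicate 2, and 3 or 4 without any other array. The 1 called lower was no longer called in 5 of these 8 fits on control diet, in 4 of 8 on PB and after quantile normalization on PB. Both CAR KO arrays with the lowest Cyp3a levels were at the ends of these genes too. CAR KO control replicate 3 read 5.17 for Cyp2c12, against 3.36, 3.54 and 4.41 in the other CAR KO controls, and 7.04 for Cyp2c11, against 7.91, 7.91 and 7.94. CAR KO PB replicate 1 read 6.07 for Cyp2c12, against 5.59, 4.33 and 5.46, and 6.64 for Cyp2c11, against 6.89, 7.19 and 7.41. Both arrays were picked after their values were seen, and the SD arrays lowest for Cyp3a2 were mixed in this respect. SD control replicate 4, lowest of its group for Cyp3a2 at 6.94, had the highest Cyp2c11 of that group (8.55). Its Cyp2c12, 3.29, was close to the highest of that group (3.31). SD PB replicate 2, lowest for Cyp3a2 at 8.37, read 1.52 for Cyp2c12, against 2.02, 0.53 and 1.51. It read 8.65 for Cyp2c11, against 8.71, 8.85 and 8.32. The SD PB livers spanned only 8.37 to 8.62 for Cyp3a2.

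**Figure D5:**
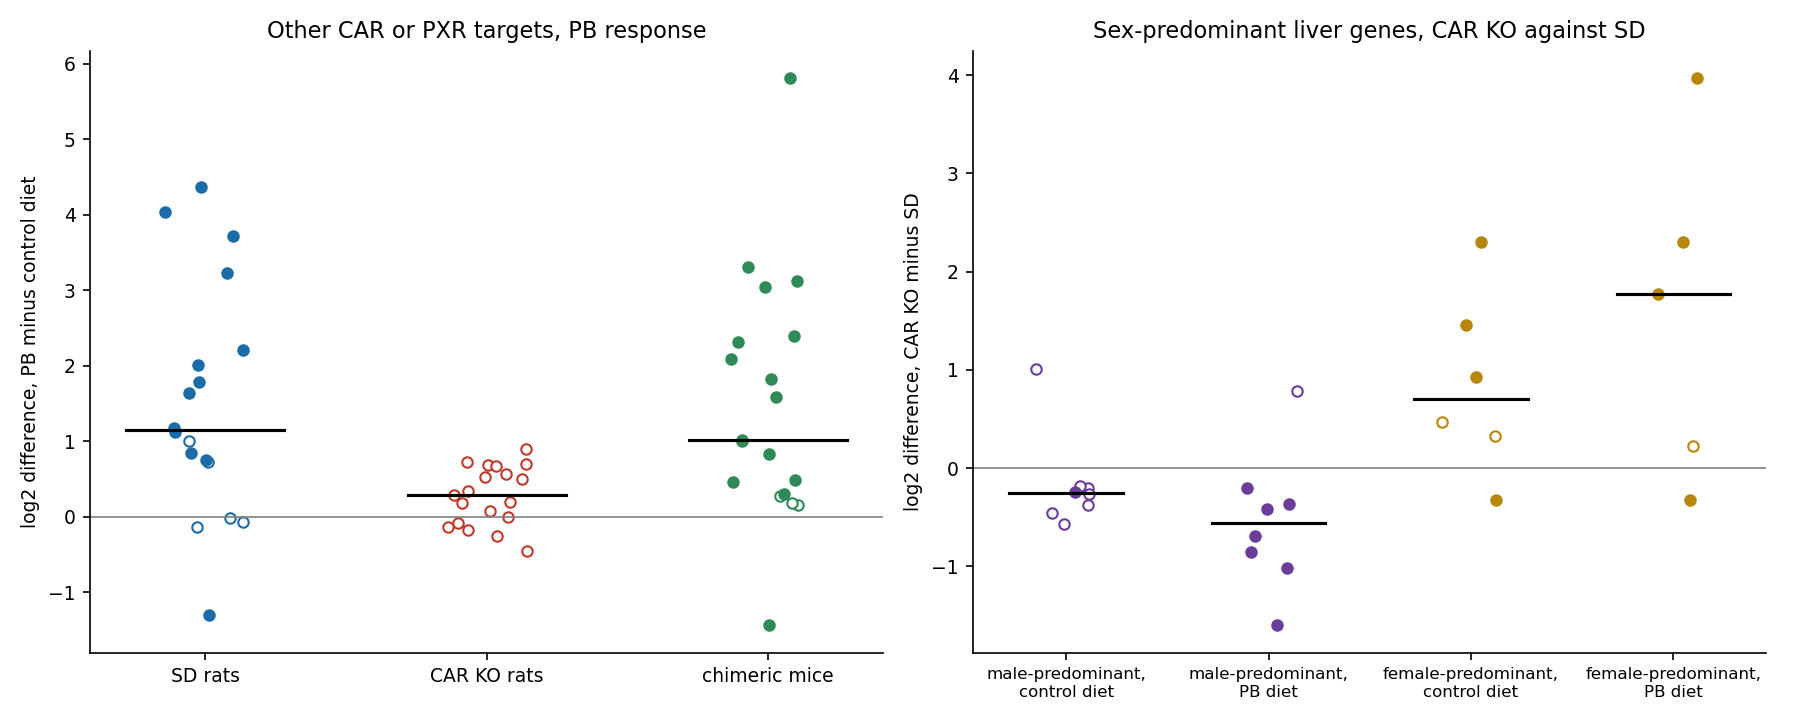
Left, log2 difference between PB and control diet for other CAR or PXR targets in SD rats (18 genes), CAR KO rats (19) and chimeric mice (19); right, log2 difference of CAR KO from SD rats on each diet for 8 male-predominant and 6 (control diet) or 5 (PB) female-predominant liver genes. Filled points were called by limma, open points were not, lines are medians, and genes not well above background on every array of both groups are left out.

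In chimeric mice, where 19.3% of all genes were called higher and 23.4% lower on PB, the counts of the male-predominant list were near those shares: 1 of 8 male-predominant genes rose (Cyp2c11, 0.59 ± 0.138) and 2 fell (Cyp4a2, -1.13 ± 0.187, and Hsd11b1, -0.87 ± 0.129), while 3 of 6 female-predominant genes rose and 1 fell. Among those that rose were A1bg (3.25 ± 0.29, a size that rests in part on control signals below background, since 1 of 7 controls was above it) and Cyp2c12 (0.83 ± 0.318, adjusted p = 0.0452). After quantile normalization 4 male-predominant genes fell, and after median centring 2 rose and 5 female-predominant genes rose. In SD rats 0 of 8 male-predominant genes were called by limma (0 also at an unadjusted p under 0.05) and 1 of 6 female-predominant genes fell (Sult2a1). Over all genes 2.5% were called higher in SD rats and 1.8% lower. In CAR KO rats 1 of 8 male-predominant genes was called lower, against 0.154% of all genes, and 6 lower would pass unadjusted. After quantile normalization 0 were called. Of 7 female-predominant genes 0 were called there, and 3 higher would pass unadjusted. The medians of the male- and female-predominant lists were -0.67 and 1.01 in CAR KO rats and -0.12 and -0.78 in SD rats. In neither list was a difference between these responses called.

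Genes with the most similar pattern were sought among 10756 named genes, by the root mean square (RMS) difference of the 6 group means taken relative to SD control, on the log2 scale. For Cyp3a23-3a1 they included Slc22a13 (0.42) and Alas1 (0.43). For Cyp3a2 they were the carboxylesterase Ces1d (0.36), Phgdh (0.51) and Ugt2a3 (0.51), and Ces1d was at -0.82 in CAR KO control and -1.32 in CAR KO PB livers, where Cyp3a2 was at -1.16 and -1.80. For Cyp3a9 they were Tm7sf2 (0.32), Jun (0.35) and Zmynd15 (0.36). For Cyp3a18 (Tnfsf10, 0.12, Rpl27a, 0.13, and Tcea1, 0.13) and Cyp3a62 (Lpin2, 0.12, Slc16a12, 0.12, and Chchd6, 0.16) the distances were smaller. Their own means relative to SD control spanned -0.55 to 1.05 and -0.92 to 1.07, against 0.07 to 3.36 for Cyp3a23-3a1 and -1.80 to 1.42 for Cyp3a2.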

How the data were processed

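Liver RNA of 6 groups (3 models, 2 diets) was hybridised to 30 one-colour rat arrays (design 028279), with labels that call the samples biological replicates. The deposited intensity values hold the processed signal of the scanner software, from which background was subtracted within each array, per the file headers (Feature Extraction 10.7.3.1). The authors' deposited series matrix holds log2 values; set against the scanner values, each array's column is log2 of the same signal less an offset within -0.014 to -0.006 of the array's 75th percentile, with no centring per gene (column medians -4.22 to -3.38), and it served as an alternative. The sources used here do not give further steps of the authors.

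From the 62976 spots per array, 4259 control spots and outlier spots were left out, and spots of a probe were averaged into 30367 probes. No spot outside the controls was saturated (0 over all arrays). The 75th percentile lay at a signal of 198 to 568, and 50.8% to 67% of probes were well above background. The number of arrays limits the precision. Values were log2 signal minus each array's 75th percentile. Probes were named through RefSeq (GRCr8, names only), which matched 18004 probes to 15170 symbols; the array's own grid uses an older build. Genes entered a test if at least 75% of the arrays of 1 group compared had the probe well above background. limma 3.58.1 (lmFit, eBayes) in R 4.3.3 was fitted on all genes tested, two-sided, with data.table (1.17.8) to read files: 16 rat arrays, 14 chimeric arrays, or all 30 for chimeric against SD. The scripts were tested on simulated data. A fold written "at least" sets the brighter group against, per array of the dimmer group, the probe's own signal or the lowest signal well above background, whichever is higher.

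All 5 members are reported in all comparisons. The members, the pathway lists, the marker lists and the tests were chosen with earlier results of these data known. Values of pathway genes are given for the 4 largest called differences of a list in the PB responses, and for Nr1i2, Nr1i3 and Por. The 3 most similar genes of each member were named by RMS difference, except 1 gene that is not reported here. Srd5a1 and the per-array values of Cyp2c11 and Cyp2c12 were picked after their values were seen. A planned test of further probes per gene was void, as each member had 1 probe. List genes without a matched probe (Ncoa1, Ugt1a1, Aldh1a7, Ca3, Dhrs7, Stab2, Sox9, Ms4a1, Mpo and Hba1) are not analysed here.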

Additional observations from a re-analysis of the deposited data

Results flagged for a closer look

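In chimeric livers on PB, Cyp3a18 of replicate 3 read 5.70, the lowest of the 7; its distance to the next liver was 0.571 of the group's range, just over the critical value of Dixon's test for 7 samples. Of 30 sets of 1 gene in 1 group that were looked at this way, chance alone marks about 1 in 20. The response of Cyp3a23-3a1 to PB differed between CAR KO and SD rats by -2.07 on the log2 scale (adjusted p = 0.00329 by limma), and it was between -2.21 and -1.94 with each array left out in turn. The response of Cyp3a62 was larger in chimeric mice than in SD rats by 0.77 (adjusted p = 0.04), a call that was lost without any 1 of 11 arrays and with the slide as a block.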

How the results depend on the processing

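Over 445 values recomputed under other settings, 426 kept their call, 13 lost it and 6 gained it. With 1 array left out, 899 of 920 kept their call, 16 lost it and 5 gained it. Among values called in either fit, 0 reversed direction, while changes of sign were not counted for values called in neither. Such changes occurred: the Cyp3a23-3a1 response in chimeric mice differed from that in SD rats by -0.19, and by 0.03 after quantile normalization. The count of Cyp3a genes called between CAR KO and SD rats on control diet went from 1 to 0 in a fit of only those groups, and was 0 to 1 with an array left out. For the PB response in chimeric mice it went from 3 to 1 with the slide as a block and to 1 within slide 1, the latter chosen after seeing the data, and was 3 with the slide row as a block. For the difference of responses between chimeric mice and SD rats it went from 1 to 0 after quantile normalization, without the filter on dim probes and with the slide as a block, and was 0 to 1 with an array left out.

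Single genes also moved. In chimeric mice the response of Cyp3a2 was not called with all 30 arrays in 1 fit (adjusted p = 0.0502 by limma), and that of Cyp3a9 was called after median centring (0.55, adjusted p = 0.03). In chimeric livers against SD rats, median centring called Cyp3a62 on control diet (0.51, adjusted p = 0.0263) and Cyp3a2 on PB (1.22). In the chimeric response, median centring moved the median of all genes from 0.064 to 0.345 and the share of calls that were higher from 45.3% to 70.8%.

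Replicate numbers showed no pairing across diets in rats: same-numbered arrays' deviations correlated at -0.08 to 0.07 in SD rats and -0.17 to 0.06 in CAR KO rats. In chimeric mice they correlated at -0.17 to 0.67, where 4 of 7 exceeded 0.1 and 3 of 7 arrays correlated best with their own number. These values do not settle whether same-numbered chimeric arrays were paired. With the replicate number as a block, the control-diet count between CAR KO and SD rats was 0, and no other count of Cyp3a genes called moved by over 1.5 times. A slide block could not be fitted for the rat comparisons or for level differences between models, as each model has slides of its own. The counts of pathway lists under other scalings and with arrays left out were chosen after seeing the data.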
